A study of Cavia porcellus with 10 samples.

Results

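Glycolysis enzymes and target genes of hypoxia-inducible factors (HIF) were followed in the sclera of guinea pigs (Cavia porcellus) with and without lens-induced myopia. The set holds 35 genes, taken by symbol from the 17642 table lines that carry one: 19 enzymes of glycolysis and 16 other HIF targets. All 35 were found. For SLC2A3, which stands on 4 lines, the line with the highest mean count was used. RNA-seq libraries were made from scleral tissue of male animals aged 2 to 3 weeks. In the myopia group both eyes wore lenses that induce myopia, and the control group was left untreated. Each group has 5 libraries, each from 1 eye. Lens power, wearing time and which eyes share an animal are not stated in the labels.

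Glycolysis splits glucose into pyruvate. Hexokinases trap glucose as glucose 6-phosphate, phosphofructokinase commits it to the pathway, and the payoff enzymes from GAPDH to pyruvate kinase recover ATP. Lactate dehydrogenase then turns pyruvate into lactate. HIF1A and EPAS1 are transcription factors that become stable when oxygen is short. Between them, and with their partner ARNT, they raise most genes of this pathway along with glucose transporters, mitophagy genes and pH regulators. Many of the enzymes are thus themselves HIF targets. In the eye, scleral hypoxia has been discussed as a part of myopia.

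The libraries held 32309258 to 34055139 counts in myopia and 32568123 to 35430797 in control. Levels are given as CPM, a gene's count relative to its library's total, scaled with TMM factors; they compare libraries, not genes of different length. TMM factors ran from 1.11 to 1.25 in myopia and from 0.777 to 0.968 in control. On the first principal component of all genes tested, the myopia libraries lay at 61.5 to 72.5 and control libraries 1 to 5 at -94.6, -87.4, -81.5, -49.7 and -24.6, so control libraries 4 and 5 stood nearest to myopia. Markers were called higher or lower with the gene test given below, by which 36.9% of all genes tested were higher in myopia and 35.1% lower. With scaling by total count these shares were 52.0% and 18.7%. All 10 fibroblast markers were measured, 2 higher and 5 lower, with summed levels of 71326 to 96971 CPM in myopia and 126971 to 159373 CPM in control. COL1A1 alone had a mean of 35555 CPM in myopia and 82728 CPM in control, so it makes up most of the gap between these sums. Of the macrophage markers tested, 11 of 13 were lower in myopia and 0 higher (sums of 471 to 719 CPM in myopia and 1491 to 2344 CPM in control), and all 4 red cell genes tested were lower (100.2 to 456 CPM in myopia and 2505 to 10562 CPM in control). Of 15 skeletal muscle markers 6 were lower and 0 higher (2910.1 to 6188 CPM in myopia and 3885 to 10403 CPM in control), and of 12 retina and neuron markers 7 were lower and 0 higher (104 to 278 CPM in myopia and 269 to 468 CPM in control). Of 9 endothelial markers 3 were higher and 2 lower (930.0 to 1384 CPM in myopia and 1139 to 1387 CPM in control), and of 12 glia and pigment epithelium markers 3 were higher and 4 lower (3403 to 10464 CPM in myopia and 6295 to 9969 CPM in control). With scaling by total count, counts of higher and lower genes became 4 and 4 for fibroblast, 1 and 11 for macrophage, 0 and 4 for red cell, 1 and 2 for muscle, 1 and 3 for retina and neuron, 6 and 0 for endothelial and 3 and 1 for glia and pigment epithelium markers. No marker that was found had a count of 0 in all libraries. The part of these other cells in the results was not tested, and in a bulk sample fewer cells of a type and less RNA per cell cannot be told apart.

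Most glycolytic enzymes were lower in the myopic sclera on the TMM scale and none was called higher, while the other HIF targets split; with libraries scaled by total count alone, 6 enzymes fell and 7 rose, as described further on. By edgeR's quasi-likelihood test, Benjamini-Hochberg adjusted across 14683 genes, 12 of 19 enzymes fell, 0 rose and 7 did not pass an adjusted p of 0.05. Among all genes tested 35.1% were lower and 36.9% higher, or 71.9% in either direction. Of the other HIF targets, 15 of 16 had counts high enough to be tested. Of these 15, 6 rose, 5 fell and 4 did not pass, which is near the shares over all genes. ANKRD37 was below the filter on low counts. The median log2 fold change was -0.57 for the enzymes and 0.15 for the other targets, beside 0.03 for all genes. For 11 enzymes all 5 myopia libraries lay below all 5 control libraries, and for 0 above; over all genes tested this held for 28.0% below and 29.8% above.

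**Figure D1:**
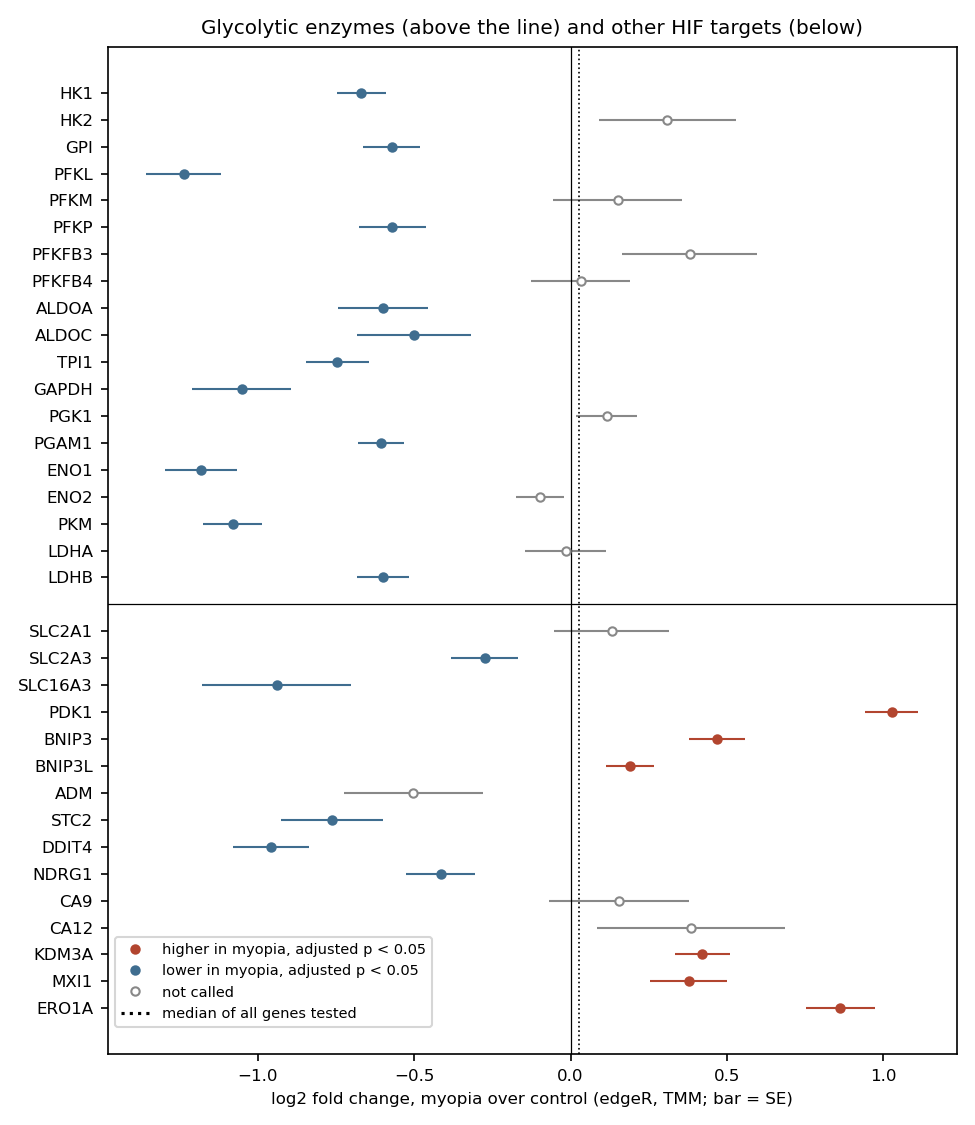
Log2 fold change of myopia over control for the 34 members tested (point) with its standard error (bar), from edgeR with TMM factors, with glycolytic enzymes above the line and other HIF targets below. The 12 enzymes that passed lie left of 0, whereas the other targets have 6 calls on the right and 5 on the left; with scaling by total count the enzymes split into 6 lower and 7 higher.

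At the entry of the pathway HK1 fell and HK2 did not pass on the TMM scale. With scaling by total count HK1 still fell, HK2 was called higher and GPI did not pass. HK1, the isoform of most tissues, had 93.9, 77.8, 82.1, 85.8 and 79.6 CPM in myopia libraries 1 to 5, against 130.1, 139, 137, 126 and 134 CPM in control libraries 1 to 5. All myopia libraries lay below all control libraries, and HK1 fell (log2 fold change -0.67 ± 0.08, SE; adjusted p = 5.62e-06). HK2, the inducible isoform of muscle and of growing or hypoxic cells, had 8.83, 6.96, 9.37, 7.18 and 5.40 CPM in myopia libraries 1 to 5, against 4.22, 4.58, 6.38, 6.30 and 8.93 CPM in control libraries 1 to 5. The groups overlapped, with control library 5 above 4 of the 5 myopia libraries, and HK2 did not pass (0.31 ± 0.22, adjusted p = 0.22). Without control library 5 it was called higher (log2 fold change 0.50, adjusted p = 0.0373). Leaving out control library 4 as well gave 0.59 (adjusted p = 0.0269). GPI, which turns glucose 6-phosphate into fructose 6-phosphate, stood at 141 to 168 CPM in myopia, against 202 to 257 CPM in control and fell (log2 fold change -0.57 ± 0.09, adjusted p = 7.70e-05).

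Among the 3 phosphofructokinase genes the liver-type and platelet-type isoforms fell and the muscle-type isoform did not pass on the TMM scale. With scaling by total count PFKL still fell, PFKP did not pass and PFKM was called higher. PFKL, the liver-type subunit, had 45.6, 35.2, 37.5, 41.2 and 47.3 CPM in myopia libraries 1 to 5, against 110.5, 109, 102, 89.0 and 76.5 CPM in control libraries 1 to 5. The highest myopia library lay below the lowest control library, and its log2 fold change of -1.24 ± 0.12 (adjusted p = 1.45e-06) was the most negative of the 34 members tested. PFKP, the platelet-type subunit, stood at 40.2 to 57.8 CPM in myopia, against 65.6 to 82.2 CPM in control and fell (log2 fold change -0.57 ± 0.11, adjusted p = 0.000301). PFKM, the muscle-type subunit, had 116, 141, 159, 154 and 107 CPM in myopia libraries 1 to 5, against 87.5, 74.1, 163, 153 and 131 CPM in control libraries 1 to 5. Control libraries 1 and 2 were the lowest of all 10, control library 3 was the highest, and PFKM did not pass (log2 fold change 0.15 ± 0.21, adjusted p = 0.528). The summed skeletal muscle markers were 3854, 6188, 5918, 5355 and 2910.1 CPM in myopia libraries 1 to 5, against 5648, 3885, 10403, 7885 and 5019.7 CPM in control libraries 1 to 5. They too were highest in control library 3, and within myopia both the markers and PFKM were lowest in library 5; the part of muscle in the PFKM level was not tested. As a share of the counts of the 3 genes, with no correction for gene length, PFKL held 22.2, 15.1, 15.5, 17.5 and 23.3% in myopia libraries 1 to 5, against 39.4, 43.1, 30.9, 28.8 and 28.0% in control libraries 1 to 5. The PFKL share was thus smaller in every myopia library than in every control library.

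Of the bifunctional enzymes that make and break fructose 2,6-bisphosphate, an activator of phosphofructokinase, the members PFKFB3 and PFKFB4 did not pass on the TMM scale. PFKFB1 and PFKFB2, counted with the further glycolysis genes below, rose on that scale (log2 fold changes 1.27 and 0.75). With scaling by total count PFKFB3 and PFKFB4 were both called higher. PFKFB3, an isoform with strong kinase activity that hypoxia induces, had 33.8, 19.3, 37.7, 40.4 and 34.9 CPM in myopia libraries 1 to 5, against 18.9, 19.98, 26.1, 24.3 and 38.4 CPM in control libraries 1 to 5. Myopia library 2 lay among the low control libraries and control library 5 among the high myopia libraries, and the log2 fold change was 0.38 ± 0.22 (adjusted p = 0.132). Leaving out either of these libraries gave a call of higher: 0.52 without myopia library 2 (adjusted p = 0.0195) and 0.59 without control library 5 (adjusted p = 0.0153). Without control libraries 4 and 5 together it was 0.63 (adjusted p = 0.0307). PFKFB4, another hypoxia-inducible isoform, overlapped at 9.91 to 15.1 CPM in myopia, against 9.64 to 15.3 CPM in control (log2 fold change 0.03 ± 0.16, adjusted p = 0.865).

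The aldolases and triosephosphate isomerase, which yield the 3-carbon sugars, all fell on the TMM scale; with scaling by total count TPI1 alone passed, while ALDOA went to -0.15 (adjusted p = 0.329) and ALDOC to -0.05 (adjusted p = 0.856). ALDOA, the aldolase of muscle and most tissues, had 578, 756, 736, 695 and 572 CPM in myopia libraries 1 to 5, against 1010.4, 902, 1342, 987 and 817 CPM in control libraries 1 to 5. Its lowest control library stood above its highest myopia library (log2 fold change -0.60 ± 0.14, adjusted p = 0.00194). ALDOC, known as the brain-type aldolase, overlapped at 69.7 to 156 CPM in myopia, against 131 to 207 CPM in control (log2 fold change -0.50 ± 0.18, adjusted p = 0.0244). Its call also ended without control library 1, 2 or 5 (adjusted p = 0.053, 0.0571 and 0.0812), with upper quartile factors (adjusted p = 0.0571) and with control libraries 4 and 5 both left out (adjusted p = 0.0635). TPI1, which interconverts the 2 triose phosphates, stood at 139 to 180.4 CPM in myopia, against 246 to 322 CPM in control and fell (log2 fold change -0.75 ± 0.10, adjusted p = 2.16e-05).

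In the payoff phase 4 of 6 genes fell on the TMM scale. With scaling by total count GAPDH, ENO1 and PKM still fell, and PGAM1 did not pass. GAPDH, which oxidises glyceraldehyde 3-phosphate and often serves as a reference gene, had 541, 803, 764, 678 and 643 CPM in myopia libraries 1 to 5, against 1539, 1523, 1767, 1263 and 1017 CPM in control libraries 1 to 5. No myopia library reached the lowest control library, control library 5 (log2 fold change -1.05 ± 0.16, adjusted p = 4.70e-05). Processed pseudogene copies of GAPDH are common in mammals, so its counts may include or miss reads of such copies. ENO1, the enolase of most tissues, had 292, 264, 284, 276 and 293 CPM in myopia libraries 1 to 5, against 736, 717, 684, 550.5 and 511 CPM in control libraries 1 to 5. The myopia libraries lay close together and the control libraries spread widely, with libraries 4 and 5 lowest (log2 fold change -1.18 ± 0.12, adjusted p = 1.58e-06; -1.32 without control libraries 4 and 5). PKM, pyruvate kinase, had 322, 333, 328, 300.2 and 317 CPM in myopia libraries 1 to 5, against 746, 699, 707, 629.6 and 602 CPM in control libraries 1 to 5. The groups did not overlap (log2 fold change -1.08 ± 0.09, adjusted p = 6.90e-07). PGAM1, phosphoglycerate mutase, stood at 111 to 125 CPM in myopia, against 173 to 186 CPM in control and fell (log2 fold change -0.61 ± 0.07, adjusted p = 7.10e-06).

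The other 2 payoff genes overlapped between the groups on the TMM scale, and with scaling by total count both were called higher. PGK1, phosphoglycerate kinase, the first ATP-forming enzyme and a classical HIF1A target, had 166, 199, 210.0, 183 and 193 CPM in myopia libraries 1 to 5, against 153, 156, 195, 183 and 192 CPM in control libraries 1 to 5. Myopia libraries 2 and 3 were the highest of all 10, control libraries 1 and 2 were the lowest, and PGK1 did not pass (log2 fold change 0.12 ± 0.10, adjusted p = 0.309). ENO2, the neuron-type enolase, had 69.0, 60.8, 63.4, 61.5 and 74.3 CPM in myopia libraries 1 to 5, against 70.3, 70.1, 72.1, 70.2 and 69.5 CPM in control libraries 1 to 5. Its control libraries were almost equal and lay inside the range of the myopia libraries (log2 fold change -0.10 ± 0.08, adjusted p = 0.275; 0.35 with scaling by total count).

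Of the lactate dehydrogenase subunits LDHB fell and LDHA did not pass on the TMM scale. With scaling by total count LDHB did not pass and LDHA was called higher. LDHB, the heart-type subunit, had 151, 156, 163, 154 and 157 CPM in myopia libraries 1 to 5, against 239, 266, 247, 223 and 212 CPM in control libraries 1 to 5. The groups did not overlap, and LDHB fell (log2 fold change -0.60 ± 0.08, adjusted p = 2.34e-05). LDHA, the muscle-type subunit and a HIF1A target, had 192, 277, 239, 186 and 219 CPM in myopia libraries 1 to 5, against 186, 198, 236, 264 and 240.1 CPM in control libraries 1 to 5. The groups overlapped. LDHA did not pass (log2 fold change -0.02 ± 0.13, adjusted p = 0.919), and its value turned to 0.41 with scaling by total count.

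**Figure D2:**
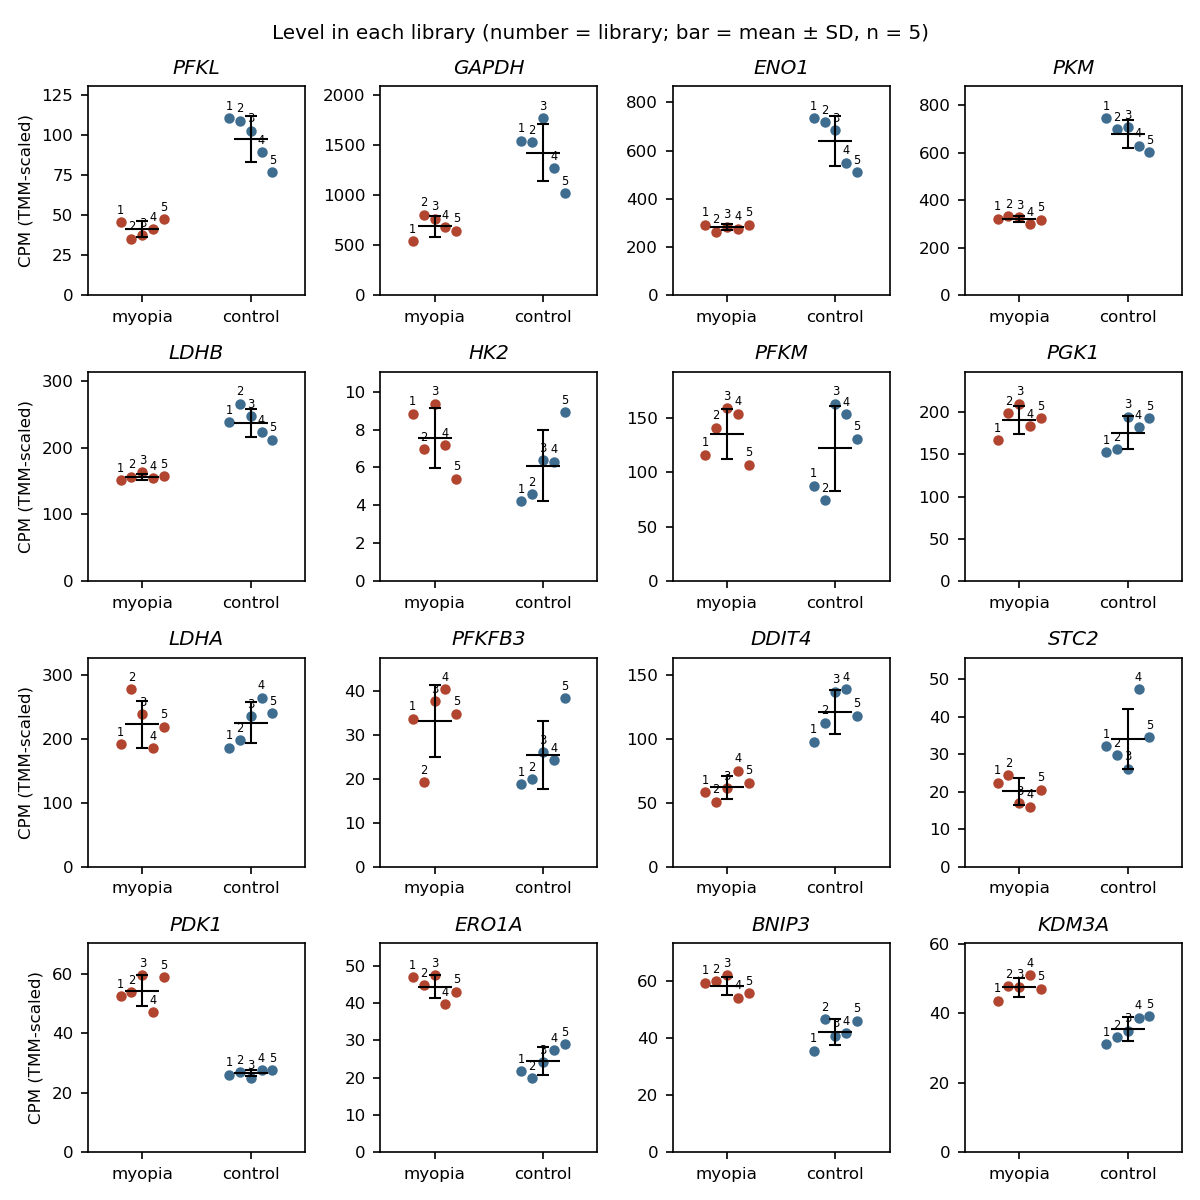
TMM-scaled CPM of 16 members in each library (point, numbered by library) with mean ± SD (n = 5), myopia left and control right in each panel. On the TMM scale PFKL, GAPDH, ENO1, PKM, LDHB, DDIT4 and STC2 lie lower in every myopia library than in any control library, PDK1, ERO1A, BNIP3 and KDM3A lie higher, and HK2, PFKM, PGK1, LDHA and PFKFB3 overlap.

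Of the 3 transporters 2 fell on the TMM scale and 1 did not pass; with scaling by total count none passed as lower. SLC2A1 (GLUT1), the basal glucose carrier, had 39.5, 21.3, 25.8, 40.8 and 26.5 CPM in myopia libraries 1 to 5, against 24.3, 22.8, 28.6, 28.4 and 36.4 CPM in control libraries 1 to 5. Myopia libraries 1 and 4 were the highest of all 10 and myopia library 2 the lowest, and SLC2A1 did not pass (log2 fold change 0.13 ± 0.18, adjusted p = 0.534). SLC2A3 (GLUT3), a high-affinity glucose carrier, overlapped at 17.7 to 21.4 CPM in myopia, against 21.1 to 28.2 CPM in control; it fell (log2 fold change -0.27 ± 0.11, adjusted p = 0.0333), but its reads may be split over the 4 lines. That call ended without control library 3 or 5, without myopia library 2, 3 or 5 and without control libraries 4 and 5 together, with adjusted p values of 0.113, 0.0751, 0.0635, 0.0824, 0.0559 and 0.0501, and with upper quartile factors (adjusted p = 0.112) and with scaling by total count, where it turned to 0.17. SLC16A3 (MCT4), which exports lactate, had 2.31, 5.61, 4.00, 2.82 and 4.27 CPM in myopia libraries 1 to 5, against 6.90, 6.91, 9.73, 7.05 and 5.85 CPM in control libraries 1 to 5. Its level was low in both groups and lower in every myopia library (log2 fold change -0.94 ± 0.24, adjusted p = 0.00287).

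The members that act on mitochondria, PDK1, BNIP3 and BNIP3L, all rose. Not all HIF targets of this kind did. NDUFA4L2, HIGD1A and COX4I2, counted with the further HIF targets below, fell on the TMM scale (log2 fold changes -1.29, -0.54 and -0.87). PDK1, the kinase that inhibits pyruvate dehydrogenase and so keeps pyruvate out of the citric acid cycle, had 52.5, 53.7, 59.5, 47.0 and 58.8 CPM in myopia libraries 1 to 5, against 26.1, 26.9, 25.1, 27.6 and 27.7 CPM in control libraries 1 to 5. Every myopia library lay above every control library, and the log2 fold change of 1.03 ± 0.09 (adjusted p = 5.78e-07) was the highest of the 34 members tested. BNIP3, a receptor for the removal of mitochondria by autophagy, had 59.4, 60.0, 62.0, 54.2 and 55.8 CPM in myopia libraries 1 to 5, against 35.6, 46.5, 40.8, 41.7 and 46.1 CPM in control libraries 1 to 5. The groups did not overlap, and BNIP3 rose (log2 fold change 0.47 ± 0.09, adjusted p = 0.000371). BNIP3L (NIX), its relative, had 97.8, 100.4, 95.9, 92.2 and 89.4 CPM in myopia libraries 1 to 5, against 78.3, 88.7, 77.0, 85.5 and 87.5 CPM in control libraries 1 to 5. Its lowest myopia library stood barely above its highest control library (log2 fold change 0.19 ± 0.08, adjusted p = 0.0381). The BNIP3L call ended without control library 1 or 3 and without myopia library 1, 2 or 3, with adjusted p values of 0.0664, 0.0736, 0.0725, 0.0885 and 0.0634; it also ended with RLE factors (adjusted p = 0.0679) and with no filter on low counts (adjusted p = 0.0566).

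Among the secreted and stress-signalling targets 3 of 4 fell on the TMM scale, and DDIT4 alone with scaling by total count. DDIT4 (REDD1), a stress-induced inhibitor of mTORC1, had 58.4, 50.8, 61.4, 75.2 and 65.8 CPM in myopia libraries 1 to 5, against 97.8, 113, 137, 139 and 118 CPM in control libraries 1 to 5. The groups did not overlap (log2 fold change -0.96 ± 0.12, adjusted p = 1.18e-05). STC2, stanniocalcin-2, a secreted glycoprotein, had 22.4, 24.5, 16.9, 15.97 and 20.5 CPM in myopia libraries 1 to 5, against 32.2, 29.8, 26.1, 47.3 and 34.6 CPM in control libraries 1 to 5. Control library 4 was the highest, and all myopia libraries lay below all control libraries (log2 fold change -0.76 ± 0.16, adjusted p = 0.000872). NDRG1, a stress-responsive gene much used as a marker of hypoxia, stood at 243 to 335 CPM in myopia, against 332 to 394 CPM in control. Only myopia library 1 reached into the control range, at 335 CPM, above control library 4 at 332 CPM (log2 fold change -0.42 ± 0.11, adjusted p = 0.004; 0.04 with scaling by total count). ADM, the vasodilator peptide adrenomedullin, overlapped at 3.45 to 8.01 CPM in myopia, against 5.54 to 9.41 CPM in control and did not pass (log2 fold change -0.50 ± 0.22, adjusted p = 0.0576). It was called lower with RLE factors (adjusted p = 0.0483), with DESeq2 (adjusted p = 0.035) and without control library 4 (-0.60, adjusted p = 0.0274), myopia library 3 (-0.65, adjusted p = 0.0207) or control libraries 4 and 5 together (-0.69, adjusted p = 0.0136).

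The carbonic anhydrases, which help a hypoxic cell to handle acid, had low levels. CA9 stood at 1.84 to 2.79 CPM in myopia, against 1.67 to 2.64 CPM in control (log2 fold change 0.15 ± 0.22, adjusted p = 0.549). CA12 stood at 1.74 to 3.54 CPM in myopia, against 1.19 to 3.07 CPM in control (log2 fold change 0.39 ± 0.30, adjusted p = 0.263). Both overlapped between the groups and did not pass.

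The nuclear and endoplasmic reticulum members that could be tested rose. ERO1A, the oxidase that forms disulfide bonds in the endoplasmic reticulum, had 46.9, 44.8, 47.4, 39.7 and 43.0 CPM in myopia libraries 1 to 5, against 21.7, 19.9, 24.1, 27.4 and 28.9 CPM in control libraries 1 to 5. The lowest myopia library lay above the highest control library (log2 fold change 0.86 ± 0.11, adjusted p = 1.22e-05). KDM3A, a histone H3 lysine demethylase, had 43.7, 47.8, 47.7, 51.0 and 47.1 CPM in myopia libraries 1 to 5, against 31.0, 33.1, 35.1, 38.7 and 39.2 CPM in control libraries 1 to 5. Control libraries 4 and 5 were the highest of the control group and still below every myopia library (log2 fold change 0.42 ± 0.09, adjusted p = 0.00074). MXI1, an antagonist of MYC, stood at 50.2 to 53.3 CPM in myopia, against 31.7 to 51.5 CPM in control. The myopia libraries were nearly equal, while control library 5 lay inside their range (log2 fold change 0.38 ± 0.12, adjusted p = 0.0136). ANKRD37, a small ankyrin repeat gene known as a HIF target, had only 9, 54, 22, 17 and 13 counts in myopia libraries 1 to 5, against 4, 10, 4, 2 and 6 in control libraries 1 to 5. Its count was highest in myopia library 2, and the groups overlapped. With no filter on low counts ANKRD37 was called higher (log2 fold change 1.74, adjusted p = 0.0229). It also passed the filter when a control library or myopia library 1 was left out. ANKRD37 was then called higher, with log2 fold changes of 1.54 to 2.13 (adjusted p = 0.0112 to 0.0436). It passed there only through the counts of myopia libraries 2 to 5, the group where it is higher, so these calls add no support. Without control libraries 4 and 5 together it did not pass (adjusted p = 0.0793), and without myopia library 2, 3, 4 or 5 it was again too low to be tested.

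Set against each other within a library, the enzymes were lower relative to the other targets in every myopia library than in every control library. This difference needs no scaling factor. The mean log2 CPM of the 19 enzymes, relative to its control mean, was -0.47, -0.49, -0.38, -0.43 and -0.45 in myopia libraries 1 to 5, against -0.03, -0.04, 0.13, -0.03 and -0.03 in control libraries 1 to 5. For the 15 other targets tested it was 0.03, 0.04, 0.06, -0.03 and -0.05 in myopia, against -0.06, 0.01, -0.03, 0.03 and 0.04 in control, and the groups overlapped. The enzyme mean minus the mean of the other targets was -0.50, -0.53, -0.44, -0.41 and -0.40 in myopia, against 0.03, -0.04, 0.15, -0.06 and -0.07 in control. Control library 3 had the highest enzyme mean, and it also held the highest sum of skeletal muscle markers. Myopia library 2, with the highest sum of these markers in myopia (6188 CPM), had the lowest enzyme mean. The part of muscle in the enzyme levels was not tested. Control libraries 4 and 5 did not stand apart from control libraries 1 and 2 in the enzyme mean. In the enzyme median, however, they were the lowest of the control group, at -0.0446 and -0.0910. Control libraries 1 to 3 had enzyme medians of 0.0128, -0.00726 and 0.0802. The medians of the log2 fold changes differed by -0.73 (enzymes minus other targets), and by -0.85 with the 3 transporters counted among the enzymes. No test was made of this difference, since the members were chosen with results of these data known.

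**Figure D3:**
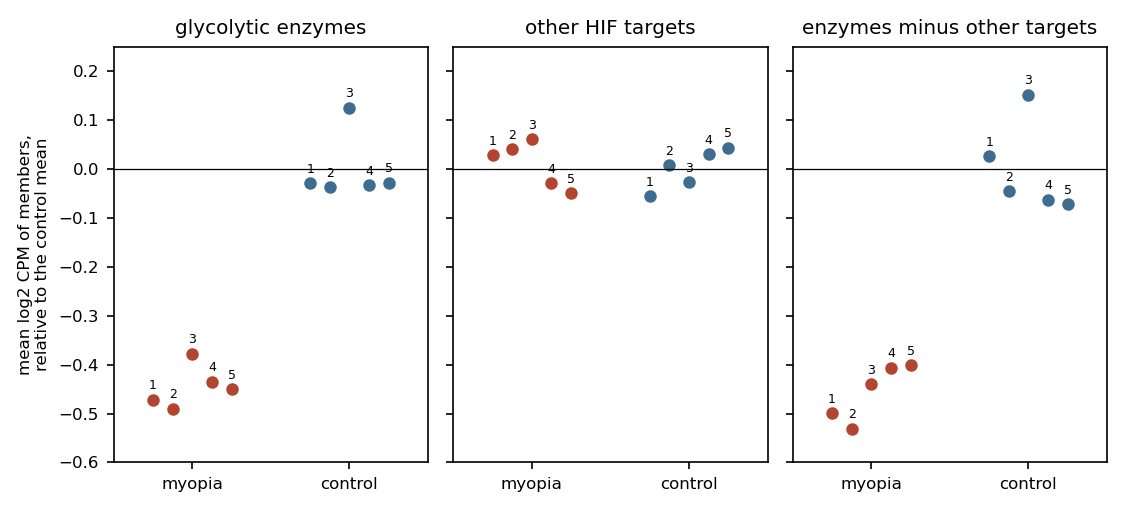
Mean log2 CPM of the 19 enzymes (left), the 15 other HIF targets tested (middle) and their difference (right) in each library, numbered, relative to the control mean. The enzyme means of the myopia libraries lie between -0.49 and -0.38 and those of the control libraries between -0.04 and 0.13, whereas the other targets overlap; the difference does not depend on the scaling of libraries.

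Ratios between isoforms or partner genes within a library were computed for 12 pairs, and 8 passed an adjusted p of 0.05 (exact two-sided permutation test of the log2 ratio, adjusted over the 12). For 7 of them all myopia libraries lay on one side of all control libraries. That gives 0.00794, the smallest exact p that 5 against 5 allows (0.0136 adjusted over the 12). Among single genes, 57.8% of those tested were apart in the same way, and no such share was computed for pairs of genes. The pairs were chosen with results of these data known, so the p-values describe these ratios and give no independent support. The ratio of LDHA to LDHB counts was 1.27, 1.77, 1.46, 1.20 and 1.39 in myopia libraries 1 to 5, against 0.780, 0.744, 0.954, 1.19 and 1.13 in control libraries 1 to 5. It was thus higher in every myopia library, by 0.58 on the log2 scale, though control library 4 came close to myopia library 4. The ratio of HK2 to HK1 was 0.0942, 0.0897, 0.114, 0.0837 and 0.0680 in myopia libraries 1 to 5, against 0.0326, 0.0331, 0.0468, 0.04998 and 0.0666 in control libraries 1 to 5. Its lowest myopia library, library 5, barely exceeded control library 5, and the mean difference was 1.01 on the log2 scale. The ratio of ENO2 to ENO1 was 0.236, 0.230, 0.223, 0.223 and 0.254 in myopia libraries 1 to 5, against 0.0956, 0.0977, 0.105, 0.128 and 0.136 in control libraries 1 to 5. The groups did not overlap, with a difference of 1.07.

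Within the phosphofructokinases, PFKM to PFKL lay at 2.26 to 4.23 in myopia, against 0.681 to 1.72 in control (log2 difference 1.43) and PFKP to PFKL at 0.960 to 1.64 in myopia, against 0.641 to 0.857 in control (log2 difference 0.66). Both were higher in every myopia library. PDK1 to GAPDH lay at 0.0670 to 0.0970 in myopia, against 0.0142 to 0.0272 in control, a log2 difference of 2.06. As PDK1 was higher and GAPDH lower in every myopia library, this ratio had to lie apart. BNIP3L to BNIP3 was lower, at 1.55 to 1.70 in myopia, against 1.89 to 2.2 in control (log2 difference -0.28). SLC16A3 to SLC16A1, the exporter and the more general monocarboxylate carrier, passed with a small overlap (log2 difference -2.37, exact p = 0.0159). This ratio lay at 0.0747 to 0.311 in myopia, against 0.305 to 1.23 in control. Both genes moved: on the TMM scale SLC16A1 rose (log2 fold change 1.33 ± 0.25) and SLC16A3 fell (-0.94 ± 0.24). The pairs PFKFB3 to PFKFB4, ALDOC to ALDOA, SLC2A3 to SLC2A1 and CA12 to CA9 did not pass, with exact p values of 0.317, 0.873, 0.0635 and 0.429. Without control libraries 4 and 5 the same number of pairs, 8, passed. Without myopia library 2, SLC2A3 to SLC2A1 passed as well, at -0.48 (adjusted p = 0.0423).

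**Figure D4:**
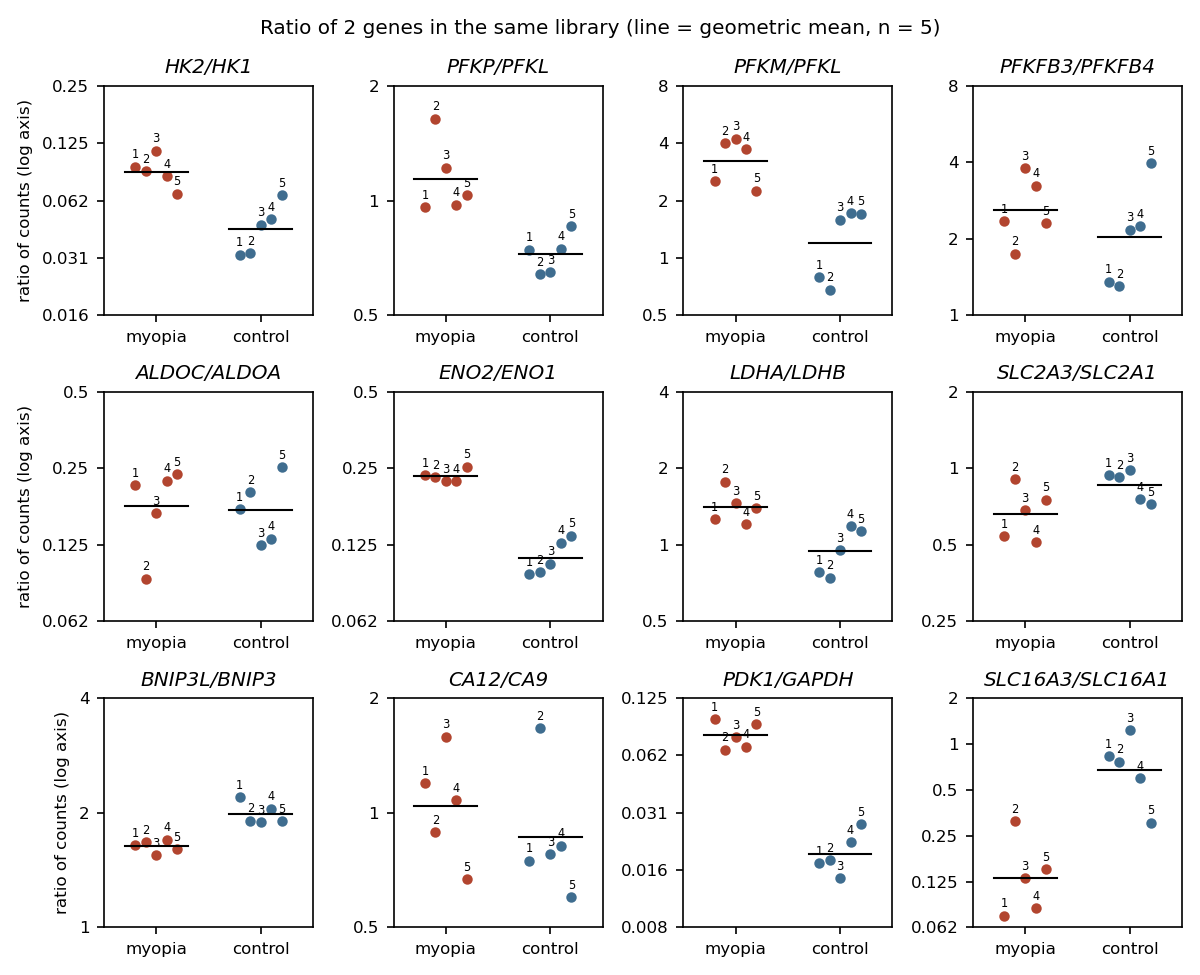
Ratio of the counts of 2 genes in the same library on a log axis, for the 12 pairs, with a numbered point per library and the geometric mean as a line, myopia left and control right. The ratios HK2/HK1, PFKP/PFKL, PFKM/PFKL, ENO2/ENO1, LDHA/LDHB and PDK1/GAPDH are higher and BNIP3L/BNIP3 is lower in every myopia library than in any control library.

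The calls in the pathway lists that follow stand beside 36.9% higher and 35.1% lower among all genes tested with TMM factors, and 52.0% higher and 18.7% lower with total counts. Of the 11 genes of the HIF system, 5 rose and 3 fell on the TMM scale, against 7 higher and 2 lower with total counts; HIF1A stood at 108 to 132 CPM in myopia, against 38.4 to 70.3 CPM in control and rose (log2 fold change 1.25 ± 0.15, adjusted p = 7.52e-06), as did ARNT (1.24 ± 0.16, adjusted p = 1.10e-05). EPAS1 (HIF2A), the second oxygen-regulated subunit, rose too, at 363 ± 49.4 CPM in myopia and 250.2 ± 56.3 CPM in control (log2 fold change 0.54 ± 0.15, adjusted p = 0.00487), with overlapping ranges. Of 38 further HIF targets tested, 18 rose, 15 fell and 5 did not pass, against 22 higher and 6 lower with total counts, with a median of 0.11. The most significant were WSB1 (1.98), INSIG2 (1.40) and RORA (1.75), which rose, and the haem oxygenase HMOX1 (-1.63), which fell.

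Of 20 further glycolysis and lactate genes tested, 10 fell and 5 rose, against 7 higher and 4 lower with total counts, with a median of -0.44. PGM1, which links glycogen to glucose 6-phosphate, and BSG (basigin), the chaperone of lactate carriers, fell with log2 fold changes of -1.08 ± 0.12 and -1.37 ± 0.16. PFKFB1, another isoform of the bifunctional enzyme, and SLC16A7 (MCT2), a high-affinity monocarboxylate carrier, rose with 1.27 ± 0.11 and 1.44 ± 0.16. Of the 7 genes of the pentose phosphate pathway, the branch that supplies NADPH and ribose, 5 fell and 1 rose, against 1 higher and 5 lower with total counts, with a median of -1.02; PGD, TKT, PGLS and TALDO1 fell with -1.16, -1.02, -1.64 and -1.05. Of 5 gluconeogenesis genes tested 3 fell and 0 rose, against 0 higher and 3 lower with total counts.

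Of 13 genes for pyruvate entry into mitochondria, 8 rose and 3 fell, against 10 higher and 2 lower with total counts, with a median of 0.53. PDHA1, the catalytic subunit, rose with 0.74 ± 0.09, and so did PDP1, the phosphatase that activates the complex, with 1.14 ± 0.12. Of the kinases that inhibit it PDK3 rose with 1.09 ± 0.09 and PDK4 with 0.74 ± 0.19, next to PDK1, while PDK2 fell with -1.003 ± 0.10. Genes of both the active and the inhibiting side were thus among those that rose.

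The calls depended on how libraries were scaled, since the median of all genes moved to 0.47 with total counts alone, against 0.03 with TMM factors. On the total count scale HK1, PFKL, TPI1, GAPDH, ENO1 and PKM fell, and HK2, PFKM, PFKFB3, PFKFB4, PGK1, ENO2 and LDHA were called higher; among all genes 18.7% were then lower and 52.0% higher. GPI, PFKP, ALDOA, ALDOC, PGAM1 and LDHB did not pass there. PDK1, BNIP3, BNIP3L, KDM3A, MXI1 and ERO1A rose on that scale too, joined by SLC2A1, CA9 and CA12, and DDIT4 was the only other target that fell, while NDRG1 went to 0.04. Relative to the median of all genes, the enzyme median lay at -0.60 and the median of the other targets at 0.13 with TMM factors. A change of scaling shifts all genes by about the same amount, so these relative values are nearly fixed across scalings and say nothing of stability. Without control libraries 4 and 5, 11 enzymes fell and 2 rose, namely HK2 and PFKFB3, while 34.7% of all genes were lower and 38.3% higher.

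**Figure D5:**
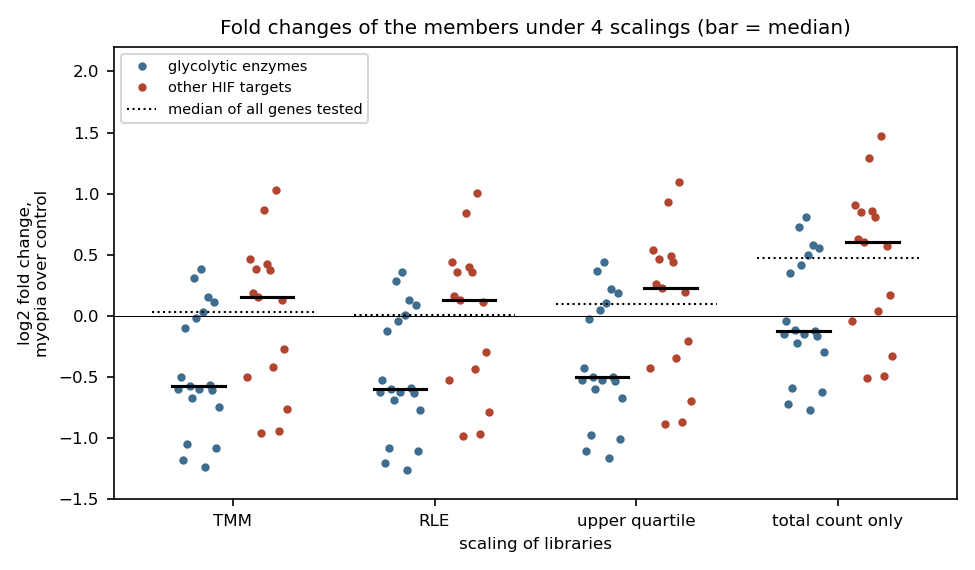
Log2 fold changes of myopia over control for the 19 enzymes and the 15 other HIF targets tested under 4 scalings of the libraries, with the median of each (bar) and of all genes tested (dotted). With total counts alone all values move up together: the enzyme median goes to -0.12 and the median of all genes to 0.47.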

How the data were processed

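The authors deposited 1 table of unnormalized read counts, whole numbers with a column per library. Columns were matched to samples by title. Most lines carry a gene symbol, and a symbol can stand on several lines. The labels' protocols name an RNeasy kit for RNA and a SMARTER mRNA library kit. Neither aligner nor counter nor strandedness is given in the sources used here, and overlapping or antisense genes may therefore share reads. The submitters' processing notes list GRCm38 and mm10 (both mouse builds) with no role stated, so coordinates are left out. Members were found by symbol, ignoring case, and 33 of the 35 matched a name in a RefSeq gene table (assembly mCavPor4.1).

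Of 18079 lines, 437 without a symbol were left out (0.751% to 0.824% of counts in myopia, 1.18% to 1.69% in control). Genes were kept with filterByExpr (minimum count 10, minimum total 15): 14683 of 17642. The test was edgeR 4.0.16 in R 4.3.3 (TMM, robust glmQLFit, glmQLFTest, group only) with Benjamini-Hochberg adjustment over all genes; the SE of a log2 fold change is its size over the root of the F statistic. Ratios had 0.5 added to each count and were tested over all 252 splits of 10 libraries into 2 groups of 5. Counts of any 2 replicates differed beyond sampling noise (chi-square over degrees of freedom 18.1 to 117). Nothing says that the eyes of a group came from separate animals, so a p-value covers the spread among the sequenced samples, which may be partly technical. Alternatives were RLE, upper quartile and total count scaling, other filters (none, or at least 1 CPM in 5 libraries), DESeq2 1.42.0, limma-voom 3.58.1, dispersion without robust estimation, a replicate block, lines of a symbol summed, and libraries left out. The gene test was tried on simulated counts, and the permutation test on small constructed sets of values. Protein lengths and promoter motifs of the members were not analysed here. All 35 members could be named. From each other pathway list at most 4 genes past the threshold were named by smallest p, plus HIF1A, EPAS1 and ARNT. Also named were SLC16A1, as part of a ratio, and NDUFA4L2, HIGD1A, COX4I2, PFKFB2 and PDK4, to complete statements on related genes. The members, lists, pairs and alternatives were chosen with earlier results of these data known.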

Additional observations from a re-analysis of the deposited data

Results flagged for a closer look

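In 4 of 70 groups of 5 libraries (35 members in 2 groups), 1 library lay far from the others by Dixon's criterion on CPM; chance gives about 1 in 20 such groups. ANKRD37 stood at 1.52 CPM in myopia library 2, above the other myopia libraries. In the control group PFKP stood highest in library 1, at 82.2 CPM, TPI1 highest in library 3, at 322 CPM, and NDRG1 lowest in library 4, at 332 CPM.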

How the results depend on the processing

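With total count scaling 2751 of all genes were lower, 6 enzymes lower and 7 higher, 1 other target lower, and the medians were -0.12 for enzymes and 0.60 for other targets; calls were 73.5% higher, against 51.2% with TMM. Upper quartile factors gave an enzyme median of -0.50. Without control libraries 4 and 5, 2 enzymes were higher. With the transporters counted as enzymes, 3 other targets were lower and their median was 0.28. Leaving out 1 library at a time gave 5229 to 5678 genes higher and 4879 to 5176 lower, 22 to 25 members called, 11 to 12 enzymes lower and 0 to 2 higher, 4 to 6 other targets lower and 5 to 7 higher, 8 to 9 ratios past the threshold, and medians of -0.60 to -0.53 for enzymes, 0.16 to 0.24 for other targets and -0.83 to -0.69 for their difference. In 6 of these 10 fits ANKRD37 passed the filter, so that 16 other targets were tested and not 15, and the ranges mix both sets.

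Single members that changed sign were, with total counts, ENO2 (0.35), LDHA (0.41), SLC2A3 (0.17) and NDRG1 (0.039). LDHA, near 0, also turned to 0.049 with upper quartile factors, 0.12 without control libraries 4 and 5, 0.0027 with lines summed and, without 1 library, ranged from -0.107 to 0.0608. PFKFB4 turned to -0.11 without control libraries 4 and 5 and ranged from -0.0418 to 0.132 without 1 library, and ALDOC/ALDOA from -0.0596 to 0.291. The cause was not tested. Whether the library numbers pair the samples is not stated in the labels. Deviations of same-numbered libraries correlated at -0.13 to 0.01, and 0 of 5 myopia libraries correlated best with the control of their own number. Such correlations cannot decide whether same-numbered libraries were paired. With a replicate block 5184 genes were higher and 4919 lower, with 12 enzymes lower, 0 higher, 5 other targets lower and 5 higher; SLC2A3 (adjusted p = 0.0839) and BNIP3L (adjusted p = 0.0884) did not pass and ADM did (adjusted p = 0.0356). Depth limits ANKRD37, CA9 and CA12, which have few counts.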

Other observations

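As a share of all counts, which amounts to scaling by total count, the 19 enzymes held 0.410 ± 0.0277% in myopia and 0.493 ± 0.0411% in control (SD, n = 5). The 16 other HIF targets held 0.0917 ± 0.00858% in myopia and 0.0737 ± 0.00874% in control. The enzyme share was highest in control library 3, at 0.566%, and lowest in myopia library 1, at 0.371%.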
